A study of Mus musculus with 12 samples.

Results

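The 10 genes described here encode the MHC class II antigen presentation machinery (Cd74, H2-Aa, H2-Ab1, H2-Eb1, H2-DMa, H2-DMb1 and Ciita) and 3 proteins typical of macrophages (Csf1r, Cd68 and Ctss). They were chosen by name and looked up by annotated symbol among 19938 genes of the adult arrays and 18194 genes of the arrays from postnatal day 3 (P3). A gene with several probe sets was represented by its brightest, judged by the mean over the arrays of its table. Of the 10 genes, 9 were measured alone in both tables. The probe sets for H2-DMb1 were listed for H2-DMb2 as well, so no level is given for H2-DMb1.

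The study measured RNA in mouse gonads that lost Foxl2, a transcription factor of ovarian granulosa cells. The adult groups were 3 ovaries of Foxl2 flox/flox x CreEBD females (called mutant ovaries here), 3 wild-type testes and 2 wild-type ovaries. All came from animals aged 8 weeks that were perfused with PBS before dissection, each array holding 1 animal. A testis sample was 0.25 of an organ, whereas the P3 samples were pools of ovaries from more than 10 females, without perfusion, with 2 pools of Foxl2 KO and 2 pools of wild-type ovaries. The labels state neither the promoter behind CreEBD nor when the adult deletion took place, and they name no Cre-carrying control. P-values measure the spread between these animals or pools.

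MHC class II molecules are pairs of an alpha and a beta chain that show peptides to CD4+ T cells. Cd74, the invariant chain, escorts them from the endoplasmic reticulum, cathepsin S (Ctss) trims Cd74 down, and H2-DM exchanges the remaining fragment for peptide. Ciita is the co-activator that switches these genes on, through factors bound to paired X and Y boxes in their promoters. Macrophages, dendritic cells and B cells make class II constitutively, and macrophages resident in ovary and testis depend on the receptor Csf1r.

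RefSeq promoter windows (build GRCm38.p6) ran from 250 bases before to 50 bases after a gene's start. They were examined for 6 members, namely H2-Aa, H2-Eb1, H2-DMa, H2-DMb1, Cd68 and Ctss. The windows of Cd74, H2-Ab1, Ciita and Csf1r were not examined, so nothing is said of matches in them. The stretches of H2-Eb1 and H2-Aa are shown because these chains rose together in mutant ovaries and their windows held a match to the Y box. Each holds the 150 bases before the start, 5′ to 3′ on the gene's own strand, with the matches in capitals. Both strands were searched for the core of the X box and for CTGATTGG as the core of the Y box. The X box core was a pattern that allows any base at some positions. The first capitals in H2-Eb1 are 1 of the strings that match it. The X box pattern and the Y box string were chosen with these sequences in view.
H2-Eb1, chr17:34305717-34305866, plus strand: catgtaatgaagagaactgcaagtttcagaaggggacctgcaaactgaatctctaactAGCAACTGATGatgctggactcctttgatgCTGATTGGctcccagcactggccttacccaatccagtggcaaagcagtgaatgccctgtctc
H2-Aa, chr17:34287824-34287973, minus strand: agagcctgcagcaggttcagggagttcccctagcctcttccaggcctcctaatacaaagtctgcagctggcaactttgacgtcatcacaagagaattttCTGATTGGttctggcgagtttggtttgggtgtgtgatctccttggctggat
In H2-Eb1 the X box match began 92 bases and the Y box match 62 bases before the start, with 19 bases between them. In H2-Aa the Y box match began 51 bases before the start. H2-DMb1 held an X box match 95 bases before its start, with letters that differ from those in H2-Eb1 at a free position. Among 32851 promoter windows, 4.1% held the Y box string and 0.968% a match to the X box pattern with its free positions. The share with the exact X box letters of H2-Eb1 was not counted. GAGGAAGT, a core of sites for the macrophage factor PU.1, matched in the window of Ctss on the opposite strand and in 3.2% of all windows. The matches did not overlap one another, and a match describes letters only.

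The genotype checks matched the labels. Foxl2 averaged 5.86 log2 units in mutant ovaries, against 8.78 in wild-type ovaries (limma, log2 change -2.92 ± 0.13 SE, adjusted p = 5.08e-07), and at P3 its signal was 186.4 and 153.7 in KO pools, against 814.5 and 829.9 in wild-type pools. Xist, made from the inactive X chromosome, was at 8.42 to 8.88 in mutant ovaries, 3.20 to 3.40 in testes and 7.76 to 8.16 in wild-type ovaries. Correlations of log2 values between arrays of one group ran from 0.969 to 0.996. Of the markers of other gonadal cells, 7 of 9 Sertoli cell genes rose and 6 of 9 granulosa cell genes fell in mutant ovaries relative to wild-type ovaries. By the same test 4 of 8 endothelial and 6 of 6 smooth muscle genes fell and 1 of 1 erythrocyte gene rose. Over all genes, 9.55% were called higher and 6.66% lower. Among 8 oocyte, 7 spermatid and 5 adipocyte genes 0 were called by limma, with 1, 1 and 3 at an unadjusted p under 0.05. The 2 wild-type ovaries, the controls of every adult change given here, stood apart from each other in these cells. Summed oocyte genes came to 1332 to 1529 units in mutant ovaries, against 2023 in wild-type ovary 1 and 482 in wild-type ovary 2. Summed granulosa cell genes came to 2526 to 3394 units in mutant ovaries, against 10893 in wild-type ovary 1 and 6731 in wild-type ovary 2, so lists without a call are no sign of equal levels. The part of these other cells in the members' values was not tested.

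Adult values are log2 expression as deposited by the authors, where 1 unit is a 2-fold difference. They do not order one gene against another, because each probe set has its own brightness. In mutant ovaries 3 class II genes, Cd74, H2-Aa and H2-Eb1, were higher than in wild-type ovaries, by 1.85-fold to 2.89-fold. By limma 3 of 9 members were called higher and 0 lower, where 9.55% of all genes were called higher, 6.66% lower and 16.2% either way. The 9 log2 changes were all positive, with a median of 0.68, whereas the median of all genes was -0.02. The groups did not overlap in 5 of 9 members, where 19.3% of all genes lay higher without overlap. RNA of whole organs cannot tell more cells of a type from more RNA per cell.

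Cd74 was at 8.75, 9.36 and 9.30 log2 units in mutant ovaries, against 7.41 and 7.80 in wild-type ovaries. All 3 mutant ovaries lay above both wild-type ovaries, by a mean of 1.53 ± 0.23 log2 units (SE, 95% interval 1.02 to 2.04, limma adjusted p = 0.00128), the largest change among the members. H2-Eb1, the beta chain of the I-E molecule, was at 8.84, 8.79 and 8.16 in mutant ovaries, against 7.43 and 7.78 in wild-type ovaries. The groups were again apart, with a difference of 0.99 ± 0.21 (95% interval 0.52 to 1.45, limma adjusted p = 0.00948), and the third mutant ovary was nearest to the controls.

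H2-Aa encodes the alpha chain of the I-A molecule. It was at 8.87, 9.77 and 8.97 in mutant ovaries, against 8.07 and 8.55 in wild-type ovaries, a difference of 0.89 ± 0.26 (limma adjusted p = 0.0425). This call was lost without wild-type ovary 1 (0.65, adjusted p = 0.172), without mutant ovary 2 (0.61, adjusted p = 0.0677) and without mutant ovary 3 (1.01, adjusted p = 0.0502), and with the 2 ovary groups fitted alone (adjusted p = 0.115). Its partner H2-Ab1, the I-A beta chain, was at 9.37, 10.02 and 9.001 in mutant ovaries, against 8.52 and 9.05 in wild-type ovaries. The third mutant ovary lay below the higher control, and the difference of 0.68 ± 0.27 missed the threshold (limma adjusted p = 0.132), although leaving out mutant ovary 3 gave 0.91 (adjusted p = 0.0482). Leaving out wild-type ovary 1 gave 0.41.

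Neither the peptide exchange factor nor the co-activator passed the test. H2-DMa was at 4.85, 5.10 and 4.71 in mutant ovaries, against 4.37 and 4.76 in wild-type ovaries, with overlap (0.32 ± 0.17, limma adjusted p = 0.238). Ciita was at 4.37, 4.56 and 4.42 in mutant ovaries, against 4.27 and 4.45 in wild-type ovaries. The difference of 0.09 ± 0.13 had a 95% interval from -0.20 to 0.39 (limma adjusted p = 0.705). Neither gene read above 5.10 log2 units in these ovaries, about the level of spermatid genes there (Prm1 at 4.50 to 4.89), so their small differences cannot be set against those of the brighter chains.

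None of the 3 macrophage genes passed the test. Csf1r, the receptor for Csf1 and Il34, was at 7.18, 7.60 and 7.48 in mutant ovaries, against 7.04 and 7.13 in wild-type ovaries. The groups were just apart, by 0.33 ± 0.15 (limma adjusted p = 0.164). Ctss was at 8.27, 9.08 and 7.93 in mutant ovaries, against 7.76 and 7.69 in wild-type ovaries, also apart, by 0.70 ± 0.26 (limma adjusted p = 0.107), and without mutant ovary 3 the difference was 0.95 (adjusted p = 0.0262). Cd68, a lysosomal glycoprotein of macrophages, was at 6.83, 7.94 and 7.09 in mutant ovaries, against 7.29 and 6.94 in wild-type ovaries. Here the groups overlapped (0.17 ± 0.28, limma adjusted p = 0.747), and without mutant ovary 2 the difference was -0.16.

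**Figure D1:**
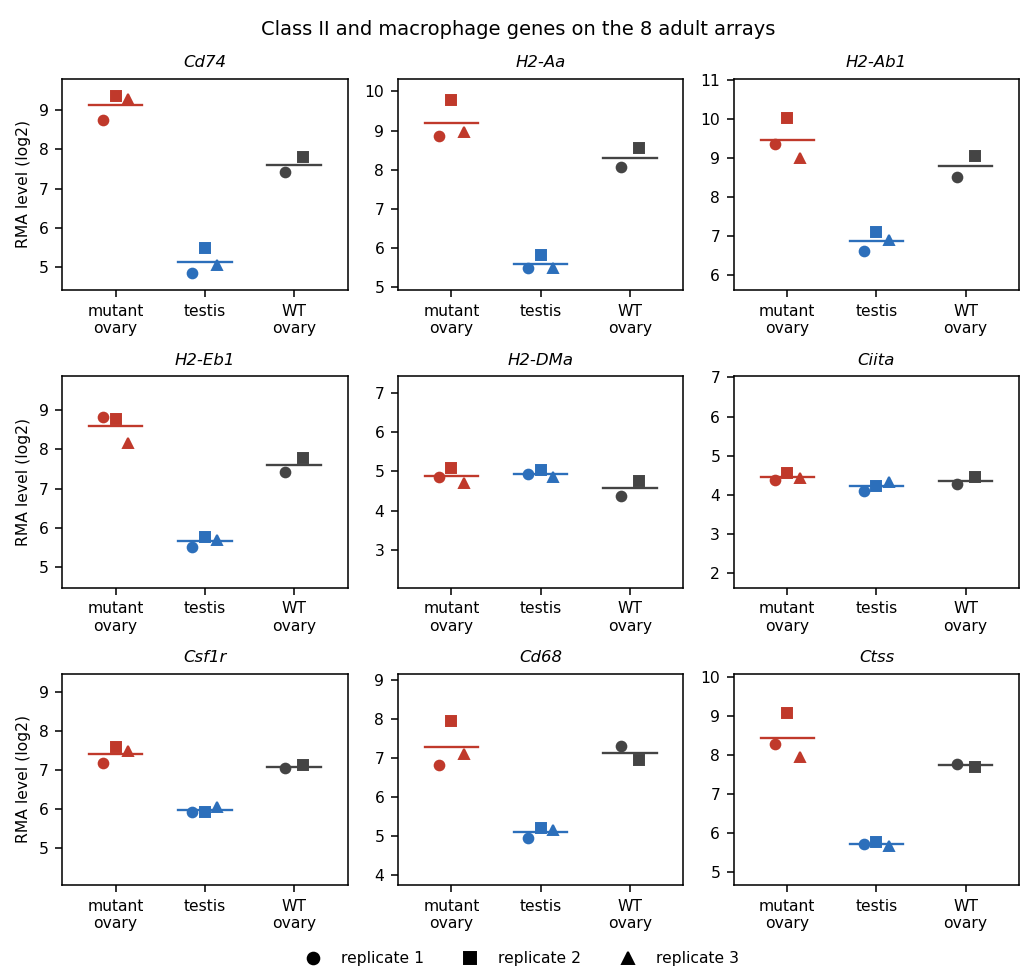
Log2 expression of the 9 members (one panel per gene, each with its own log2 axis) in 3 mutant ovaries, 3 testes and 2 wild-type ovaries; points are single animals with their number as symbol, and lines are group means. Testes lie lowest in 7 panels, and the mutant ovaries are clear of the wild-type ovaries for Cd74, H2-Aa, H2-Eb1, Csf1r and Ctss.

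**Figure D2:**
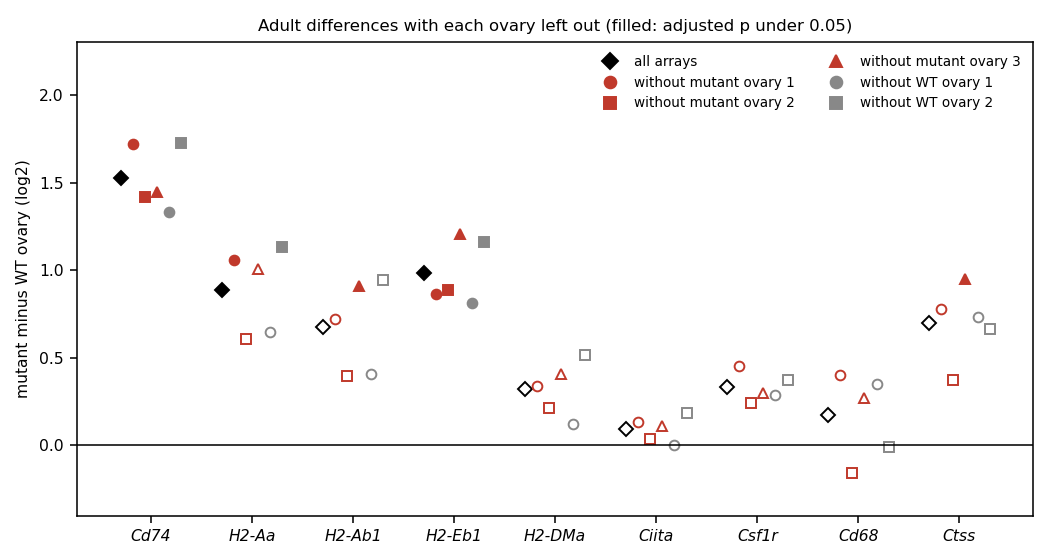
Log2 difference of each member between adult mutant and wild-type ovaries (vertical axis), with all arrays (black diamonds) and with each mutant ovary (red) or wild-type ovary (grey) left out in turn; filled symbols have a limma adjusted p under 0.05. Cd74 stays filled between 1.33 and 1.72, whereas Cd68 ranges from -0.16 to 0.40.

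Among the adults, the members tended to be high or low in the same animals. Mutant ovary 2 was the highest of the 3 mutant ovaries in 8 of 9 members, testis 2 the highest testis in 7 of 9, and wild-type ovary 2 was above wild-type ovary 1 in 7 of 9. Mutant ovary 2 also had the highest median over all genes, 5.60 against 5.51 in both other mutant ovaries. At P3 no pool led over the members as a whole: KO pools 1 and 2 were the higher in 4 and 5 members, and wild-type pools 1 and 2 in 5 and 4. KO pool 2 was, however, the higher in Cd74, H2-Aa, H2-Ab1, H2-Eb1 and Ctss, and KO pool 1 in the others. Centred on each gene's mean over the 8 adult arrays, the 4 genes Cd74, H2-Aa, H2-Ab1 and H2-Eb1 averaged 1.34, 1.87 and 1.24 log2 units in mutant ovaries, -2.00, -1.57 and -1.83 in testes, and 0.25 and 0.69 in wild-type ovaries. Csf1r, Cd68 and Ctss averaged 0.61, 1.39 and 0.68 in mutant ovaries, -1.28, -1.19 and -1.19 in testes, and 0.55 and 0.44 in wild-type ovaries. The class II average thus exceeded the macrophage average by 0.74, 0.48 and 0.56 in mutant ovaries, whereas the gap was -0.72, -0.38 and -0.63 in testes and -0.30 and 0.25 in wild-type ovaries. These averages rest on the same values as the tests of single genes and are given as a description.

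**Figure D3:**
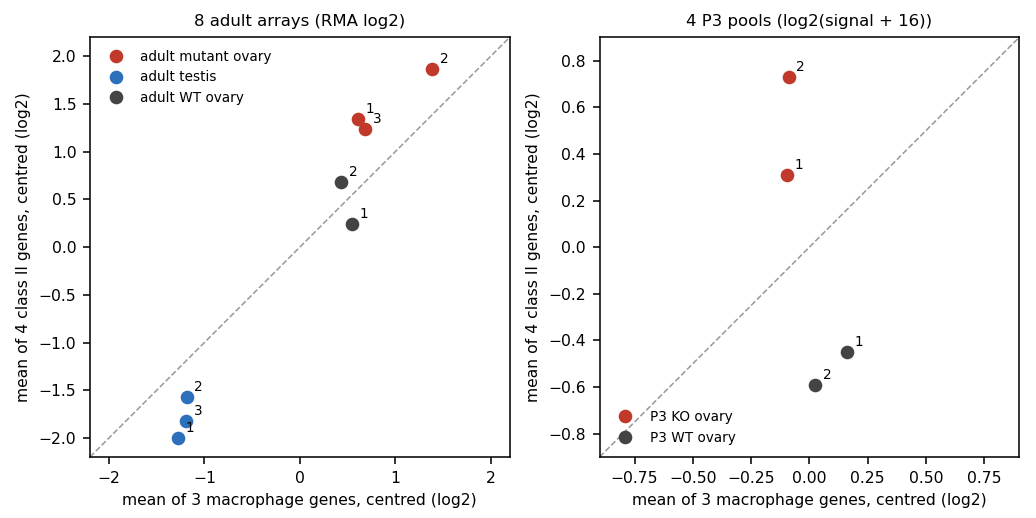
Mean centred level of Cd74, H2-Aa, H2-Ab1 and H2-Eb1 (vertical axis, log2 units) against that of Csf1r, Cd68 and Ctss (horizontal axis, log2 units), one point per array, for the adult and the P3 arrays. Adult mutant ovaries lie above both wild-type ovaries in class II level, and the P3 KO pools lie above the P3 wild-type pools in class II level without lying to their right.

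One adult array stood apart in a gene close to the members. H2-Ea, the alpha chain that pairs with H2-Eb1 and that mice of the b haplotype of H2 are known not to transcribe, was singled out after its values were seen. It was at 3.02, 2.98 and 5.43 in mutant ovaries, 2.96, 2.88 and 2.86 in testes, and 3.00 and 2.99 in wild-type ovaries, so mutant ovary 3 alone was high among the adults. H2-Ea differed between pools at P3 too. Its brightest probe set there gave signals of 31.2 and 98.1 in KO pools, against 37.7 and 224.7 in wild-type pools. Another gave 20.0 and 34.0 in KO pools, against 72.3 and 74.2 in wild-type pools. The dimmest gave 6.4 and 2.7 in KO pools, against 15.3 and 23.2 in wild-type pools. The sources used here name no strain or haplotype for the animals. Without mutant ovary 3, Cd74 differed by 1.45 (limma adjusted p = 0.00669) and H2-Eb1 by 1.21 (adjusted p = 0.00142), and 4 members were called: Cd74, H2-Eb1, H2-Ab1 and Ctss.

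Macrophage genes outside the member list moved in part with the class II chains. Of 25 such genes 5 rose in mutant ovaries, 1 fell and 22 had positive changes, with a median of 0.45. Of all genes 9.55% were called higher and 6.66% lower. The risers Cd14, Aif1 and Folr2 and the faller Cd163 were dim. Their highest ovary mean was 4.84 log2 units, for Cd14 in mutant ovaries, about the level of the spermatid gene Prm1 there. Mertk, a receptor for the uptake of dying cells that Sertoli cells also make, rose by 1.73 ± 0.18 log2 units (limma adjusted p = 9.88e-05). Cd14, a co-receptor for endotoxin, rose by 0.90 ± 0.18 (limma adjusted p = 0.00730), and Adgre1, which encodes F4/80, by 0.73 ± 0.15 (limma adjusted p = 0.00901). Cd163, the scavenger receptor for haemoglobin, fell by 0.53 on the log2 scale (limma adjusted p = 0.0279), a call lost without wild-type ovary 2 (adjusted p = 0.161). Summed on the linear scale, the 25 genes came to between 2517 and 3304 units in mutant ovaries, 1638 and 1687 in testes, and 1758 and 1890 in wild-type ovaries. Single genes carried much of these sums: Aif1 alone gave 770 to 792 units in testes, against 17.7 to 18.2 in wild-type ovaries, and Mertk gave 482 to 534 in mutant ovaries, against 125 to 194 in wild-type ovaries. Without both, which were set aside after their values were seen, the other 23 genes came to between 1963 and 2793 units in mutant ovaries, 798 and 849 in testes, and 1615 and 1677 in wild-type ovaries. The part of this in the class II values was not tested.

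Markers of dendritic cells and B cells, which also bear class II, and of T and NK cells passed the test in no case. Of 8 dendritic cell genes, 5 B cell genes and 10 T and NK cell genes, 0 were called in mutant against wild-type ovaries by limma, with 1, 0 and 0 at an unadjusted p under 0.05, and their medians were 0.02, -0.10 and -0.01. No B, T or NK cell gene had an ovary mean above that of Cd3e, 4.85 log2 units in mutant ovaries. That is about the level of Prm1 there. Several dendritic cell genes were as dim, such as Clec9a at 2.64 in mutant ovaries, whereas Zbtb46 was at 6.52. The lack of calls is therefore no sign of equal levels. Over all genes, 9.55% were called higher and 6.66% lower, so 1 call says little of a list this short. Of 5 pan-leukocyte genes 1 rose, Coro1a, an actin-binding protein of blood cells (0.53 ± 0.15, limma adjusted p = 0.0337). Its call held under 6 of 12 alternatives (highest adjusted p = 0.102) and was lost on leaving out mutant ovary 2, mutant ovary 3 or any one control ovary. Ptprc, which encodes CD45, differed by 0.36 ± 0.22 (limma adjusted p = 0.330). Of 9 granulocyte and mast cell genes 1 rose, Csf3r, the receptor for the growth factor G-CSF (0.42 ± 0.12, limma adjusted p = 0.0311), a call that held under 4 of 11 alternatives (highest adjusted p = 0.0923) and was lost on leaving out mutant ovary 2, mutant ovary 3 or any one control ovary. Csf3r was dim too, with means of 3.96 in mutant and 3.53 in wild-type ovaries. Of the ligands of Csf1r, Csf1 differed by 0.67 ± 0.22 (limma adjusted p = 0.0635) and Il34 by 0.01.

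No other measured gene of the class II pathway was called higher. Of 15 other genes measured, among them Rfx5, Ifi30, Lgmn and further cathepsins, 0 rose and 1 fell, with a median of -0.11. Of all genes 9.55% were called higher and 6.66% lower. The 1 was Ctsd, the aspartic protease cathepsin D, which fell by 0.53 on the log2 scale (limma adjusted p = 0.0159). H2-Oa, H2-Ob, H2-Eb2, Marchf1, Cd80 and Cd86 had ovary means of at most 4.39 log2 units, no higher than Prm1 there. Changes in these dim genes could have been missed, although Csf3r, as dim, was called (3.96 in mutant and 3.53 in wild-type ovaries). Interferon gamma is the classical inducer of Ciita. Of 10 genes of that axis 3 rose and 1 fell, with a median of 0.20: the chemokine gene Cxcl10 rose by 0.81 ± 0.20 (limma adjusted p = 0.0193) and the kinase gene Jak2 by 0.73 ± 0.16 (limma adjusted p = 0.0105), while Socs1, an inhibitor of the kinases, fell by 0.81 on the log2 scale (limma adjusted p = 0.0455). The Cxcl10 call was lost without wild-type ovary 1 (adjusted p = 0.0789), and that of Socs1 without wild-type ovary 2 (adjusted p = 0.247). Of 8 class I genes 1 rose, Tapbp (tapasin, which loads class I with peptide), by 1.27 ± 0.11 (limma adjusted p = 3.45e-05).

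Testes had far less of most members than wild-type ovaries. This comparison shares the 2 wild-type ovaries with the one above. By limma 7 of 9 members were lower in testis and 0 higher, where 35.9% of all genes were called lower and 24.4% higher. The median change was -1.95, whereas that of all genes was -0.15. Testes hold germ cells in bulk: 7 spermatid genes, summed on the linear scale, came to between 18458 and 20131 units in testes and 127 and 130 in wild-type ovaries. The part of germ cell RNA in the lower levels was not tested.

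Cd74 was at 4.85, 5.47 and 5.04 in testes, below both wild-type ovaries at 7.41 and 7.80 (-2.49 ± 0.23, limma adjusted p = 4.24e-06). H2-Aa was at 5.47, 5.83 and 5.50 in testes, against 8.07 and 8.55 in wild-type ovaries, with the deepest fall of the members (-2.71 ± 0.26). H2-Ab1 was at 6.63, 7.10 and 6.92 in testes, against 8.52 and 9.05 in wild-type ovaries (-1.90 ± 0.27). The chains of both class II molecules therefore lay lower in testis without overlap, as did H2-Eb1, at 5.50, 5.77 and 5.70 in testes, against 7.43 and 7.78 in wild-type ovaries (-1.95 ± 0.21).

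The macrophage genes were lower in testis too. Csf1r was at 5.93, 5.92 and 6.07 in testes, against 7.04 and 7.13 in wild-type ovaries (-1.12 ± 0.15), the smallest of the called falls. Cd68 was at 4.96, 5.21 and 5.15 in testes, against 7.29 and 6.94 in wild-type ovaries (-2.01 ± 0.28), and Ctss was at 5.73, 5.76 and 5.66, against 7.76 and 7.69 (-2.01 ± 0.26). Of the 25 other macrophage genes 17 were lower in testis and 4 higher, with a median of -0.88. Over all genes, 35.9% were called lower and 24.4% higher. Of the class I genes 8 of 8 were lower, with a median of -1.40, so class I fell beside class II.

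H2-DMa and Ciita were not called lower in testis, but they were dim in every group. Protamine genes of spermatids, Prm1 and Prm2, were at 4.31 to 4.94 in the ovaries, so a fall of these members could have been missed. Cd86, dimmer still, was called lower, at a mean of 3.12 in testes and 3.84 in wild-type ovaries. H2-DMa was at 4.93, 5.03 and 4.85 in testes, above both wild-type ovaries at 4.37 and 4.76, by 0.37 ± 0.17 (limma adjusted p = 0.0787). It passed the test as higher in testis with array medians set equal (0.45, adjusted p = 0.0361) and without wild-type ovary 2 (0.57, adjusted p = 0.0231), and was at 0.17 without wild-type ovary 1. Ciita was at 4.09, 4.22 and 4.33 in testes, against 4.27 and 4.45 in wild-type ovaries, with overlap (-0.14 ± 0.13, limma adjusted p = 0.378).

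Mutant ovaries also differed from testes in the same 7 genes. By limma 7 of 9 members were higher in mutant ovaries and 0 lower, where 37.5% of all genes were called higher and 24.3% lower. The median change of 2.58 stood beside 0.14 for all genes. Cd74 differed most, by 4.02 ± 0.21 log2 units or 16.2-fold (limma adjusted p = 3.08e-08), followed by H2-Aa with 3.60 ± 0.23, H2-Eb1 with 2.94 ± 0.19 and Ctss with 2.71 ± 0.24. H2-Ab1 differed by 2.58 ± 0.24, Cd68 by 2.18 ± 0.25 and Csf1r by 1.45 ± 0.13. Ciita differed by 0.24 ± 0.12 (limma adjusted p = 0.108) and H2-DMa by -0.05 ± 0.15. The order of the 3 adult groups was therefore mutant ovary, wild-type ovary, testis in the means of Cd74, H2-Aa, H2-Ab1, H2-Eb1, Csf1r, Cd68 and Ctss. Both steps passed the test in Cd74, H2-Aa and H2-Eb1, and in the other 4 the step between the ovaries did not. The Sertoli cell genes, in contrast, summed to between 3498 and 4453 units in mutant ovaries, 1190 and 1302 in testes, and 504 and 1041 in wild-type ovaries.

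At P3 the values are MAS5 signals, linear brightness that reaches low numbers for dim probe sets, and they were tested as log2(signal + 16), which understates the change of dim genes. No member passed the test (0 of 9 by limma, with 4 at an unadjusted p under 0.05), where 0.324% of all genes were called. The 4 were Cd74, H2-Aa, H2-Ab1 and H2-Eb1, and in each both KO pools lay above both wild-type pools. Without overlap 4 of 9 members were higher and 2 lower in KO pools, where 19.3% of all genes were higher and 19.7% lower. With 2 pools a group, a difference has to be large to pass.

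H2-Ab1 gave signals of 327.3 and 466.0 in KO pools, against 87.2 and 115.1 in wild-type pools. Both KO pools were well above the others, and the change of 1.81 ± 0.31 (95% interval 1.06 to 2.55, limma adjusted p = 0.0947) came nearest to the threshold. Its other probe sets reached at most 43.5, and with probe sets averaged the change was 0.97 (adjusted p = 0.430). H2-Eb1 gave 522.3 and 772.0 in KO pools, against 343.1 and 306.4 in wild-type pools (0.94 ± 0.24, limma adjusted p = 0.244). Cd74 gave 556.0 and 719.3 in KO pools, against 439.3 and 297.2 in wild-type pools (0.78 ± 0.26, limma adjusted p = 0.371). For both genes the pools of each group were less far apart than the 2 group means.

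H2-Aa had 4 probe sets at P3, and they differed. The brightest gave 707.8 and 863.5 in KO pools, against 533.9 and 459.9 in wild-type pools (0.64 ± 0.19, limma adjusted p = 0.313). Another gave 478.8 and 774.5 in KO pools, against 249.9 and 457.5 in wild-type pools, and a dim one 37.0 and 31.8, against 9.4 and 4.6. The remaining probe set gave 248.1 and 182.9 in KO pools, against 220.9 and 185.2 in wild-type pools, so here the groups overlapped.

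H2-DMa, with 98.3 and 81.4 in KO pools against 67.0 and 135.5 in wild-type pools, and Ciita, with 80.0 and 43.5 against 52.1 and 31.9, overlapped between the groups. Csf1r, in contrast, was bright and close in all pools, with 1956.2 and 1933.6 in KO pools, against 2056.0 and 2132.9 in wild-type pools. The difference of -0.11 ± 0.12 had a 95% interval from -0.39 to 0.18. The other probe sets of Csf1r overlapped between the groups. Ctss gave 986.6 and 1183.7 in KO pools, against 1066.9 and 1120.6 in wild-type pools (-0.02 ± 0.15). Cd68 gave 148.8 and 125.8 in KO pools, against 232.4 and 156.1 in wild-type pools (-0.44 ± 0.32, limma adjusted p = 0.772). The macrophage genes were thus level or somewhat lower in KO pools while the class II chains were higher, none past the threshold.

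**Figure D4:**
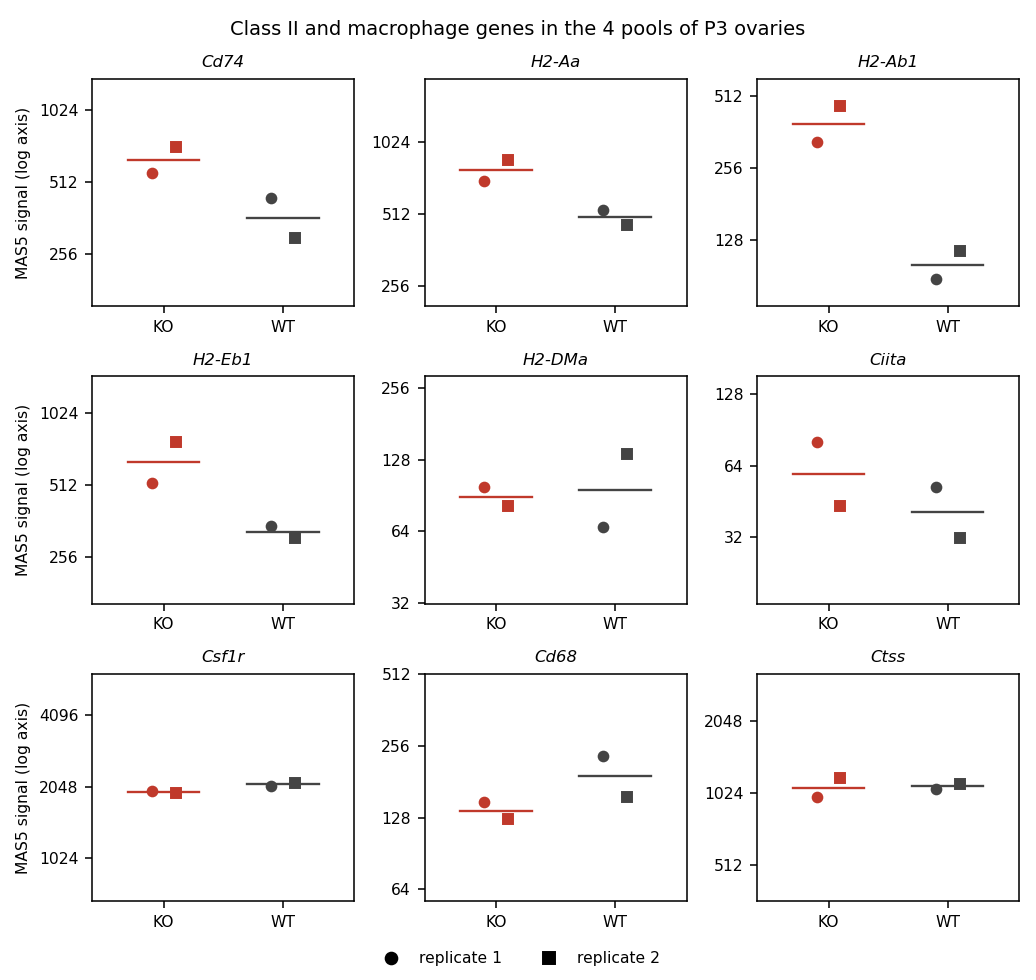
MAS5 signal of the 9 members in 2 pools of P3 KO ovaries and 2 pools of P3 wild-type ovaries (log axis, every panel spanning the same fold range); points are pools and lines are group means on the log2 scale. KO pools lie above wild-type pools for Cd74, H2-Aa, H2-Ab1 and H2-Eb1, and the pools nearly coincide for Csf1r and Ctss.

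The centred averages at P3 rest on the same values as the single genes and are given as a description. Cd74, H2-Aa, H2-Ab1 and H2-Eb1 averaged 0.31 and 0.73 log2 units in KO pools, against -0.45 and -0.59 in wild-type pools. Csf1r, Cd68 and Ctss averaged -0.10 and -0.09 in KO pools, against 0.16 and 0.03 in wild-type pools. Of 25 other macrophage genes 0 were called by limma (2 at an unadjusted p under 0.05), with a median of 0.04, and their summed signals came to between 5754 and 5772 in KO pools and 5368 and 5638 in wild-type pools. Adgre1 gave 295.9 and 295.8 in KO pools, against 211.5 and 386.1 in wild-type pools, and Ptprc 142.9 and 156.0, against 152.9 and 189.3.

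**Figure D5:**
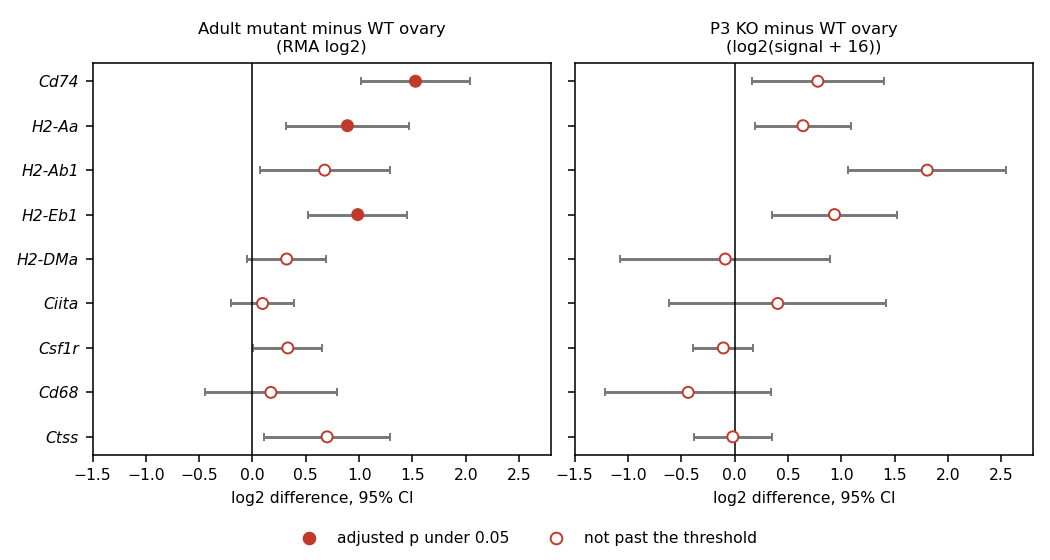
Log2 difference of each member (horizontal axis, bars are 95% intervals) between adult mutant and wild-type ovaries and between P3 KO and wild-type ovaries; filled points passed the limma test at an adjusted p of 0.05. Cd74, H2-Aa and H2-Eb1 are filled for the adults, and no point is filled for P3, where H2-Ab1 lies farthest out at 1.81.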

How the data were processed

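Gene expression was measured on 8 adult and 4 P3 microarrays, and the deposited tables were used as given. Per the submitters' processing notes, the authors made the adult values, which are log2 expression, by RMA with Affymetrix Expression Console. The P3 values are MAS5 intensity on a linear scale as the authors deposited it. No software version is named in the sources used here. The P3 labels also describe a CodeLink protocol, although the probe set names are of the Affymetrix kind. RMA shrinks differences of dim probe sets, and MAS5 is noisy for them.

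Probe sets were named through GEO's platform annotation, with symbols updated through RefSeq's gene table (GRCm38.p6). Of 35557 adult probe sets 21789 had 1 gene, 1621 several and 12147 were unnamed here, and of 45101 P3 probe sets these were 34958, 932 and 9211. Probe sets with several genes named none, and the brightest probe set stood for each gene.

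The limma package (3.58.1, R 4.3.3) was run with an intensity trend and Benjamini-Hochberg adjustment over all genes, at a threshold of 0.05. One fit held the 8 adult arrays and another the 4 P3 arrays, on log2(signal + 16). The procedure was tested on simulated data. Adult and P3 tables were never tested against each other.

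The members and the 18 marker lists were chosen with earlier results of these data known. Named beside the members were Adgre1, Ptprc, Foxl2, Xist and, per list, up to 2 called genes with the largest rise and the largest fall in mutant or KO against wild type, of which the text gives those of the immune lists. For likeness, the 5 genes closest to the members' centred profile were taken. Alternatives were averaged probe sets, no trend, a 2-fold minimum, a replicate block, dim genes left out, the compared groups alone, equal array medians or quantiles, pseudocounts of 1 and 64, and each array left out.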

Additional observations from a re-analysis of the deposited data

Results flagged for a closer look

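Csf1r and Cxcl10 lay on opposite sides at the ages measured. Csf1r was 0.33 log2 units higher in adult mutant ovaries than in adult wild-type ovaries without overlap. Its P3 change was -0.11, with both KO pools under both wild-type pools in its brightest probe set. The other P3 probe sets of Csf1r overlapped. One gave 714.8 and 760.8 in KO pools, against 647.4 and 844.3 in wild-type pools. The dimmest gave 265.3 and 234.4 in KO pools, against 257.9 and 336.5 in wild-type pools. Cxcl10 was 0.81 higher in adult mutant ovaries, and its P3 change was -0.23, again without overlap. Both genes were picked by this lack of overlap. Of all genes 19.3% lay higher without overlap in adult mutant ovaries, and 19.7% lay lower without overlap in P3 KO pools. The difference between the ages was not tested, because the tables come from different arrays and normalizations. The adult and P3 changes of Csf1r, and the P3 change of Cxcl10, did not pass the limma test.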

How the results depend on the processing

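In mutant against wild-type ovaries Cd74 was called under 12 of 12 alternatives and H2-Eb1 under 11 of 12. With a 2-fold minimum 1 member was called, and genes called fell to 1119 there and to 1731 with the groups alone, against 3232. In testis against wild-type ovary 6909 genes were called with a 2-fold minimum and 8000 with dim genes left out, against 12028, and 7181 with a 2-fold minimum in mutant ovary against testis, against 12328. At P3, 59 genes were called, but 22 with averaged probe sets, 0 by limma without the trend (with 1736 genes at an unadjusted p under 0.05) and 195 with dim genes left out. Leaving out one array at a time gave 2 to 4 members and 2540 to 3760 genes for mutant against wild-type ovary, 7 to 8 members and 10962 to 11441 genes for testis against wild-type ovary, 7 members and 11369 to 11862 genes for mutant ovary against testis, and 0 members and 0 to 22 genes at P3. With one array left out, Cd68 ran from -0.16 (without mutant ovary 2) to 0.40 in mutant against wild-type ovary, with -0.01 without wild-type ovary 2, and H2-DMa from -0.15 to 0.040 (without mutant ovary 3) in mutant ovary against testis. At P3 H2-DMa ran from -0.52 to 0.35 (without wild-type pool 2), with 0.03 without KO pool 2, Ctss from -0.15 to 0.11 (without KO pool 1), with 0.02 without wild-type pool 2, and Adgre1 from -0.37 (without wild-type pool 1) to 0.455. Ptprc turned to 0.39 with averaged probe sets. The cause was not tested.

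The main fit did not pair samples by the replicate numbers in the labels. Same-numbered deviations correlated at most at 0.08, which does not settle whether samples were paired. Between mutant ovaries and testes these correlations were 0.0575 to 0.079, against -0.0595 to -0.0016 for unlike numbers. With the replicate block 4 members and 2674 genes were called for mutant against wild-type ovary, 8 and 11433 for testis against wild-type ovary, 7 and 12136 for mutant ovary against testis, and 1 member (H2-Ab1, adjusted p = 0.0220) and 305 genes at P3. The small number of arrays limits the precision, most of all the 2 wild-type ovaries and the P3 pools.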

Other observations

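One class I gene fell at P3, and the list of 10 had a median change of -0.08. H2-K1, a classical class I heavy chain, gave 2518.7 and 2253.3 in KO pools, against 7312.5 and 5900.7 in wild-type pools (-1.46 ± 0.15, limma adjusted p = 0.0275). It was the 1 gene called of 10 in its list, where 0.324% of all genes were called. The call was lost whichever pool was left out (adjusted p between 0.0546 and 0.455). H2-D1, Nlrc5 and B2m, named after their values were seen, did not pass the test. H2-D1 gave 1315.3 and 1659.9 in KO pools, against 4655.5 and 2867.7 in wild-type pools. Nlrc5, the co-activator of class I genes, gave 53.7 and 103.4 in KO pools, against 469.8 and 318.2 in wild-type pools. B2m, the light chain, gave 10683.9 and 11203.6 in KO pools, against 16063.7 and 14677.2 in wild-type pools. All 3 were lower in KO pools without overlap, as were 19.7% of all genes. In the same list Tapbp, at 4383.7 and 3905.7 in KO pools, against 3268.3 and 2199.0 in wild-type pools (0.62 ± 0.20, limma adjusted p = 0.362), and Tap2, at 241.0 and 230.3, against 229.3 and 165.3 in wild-type pools, were higher without overlap, and neither passed the test. H2-K1 and H2-D1 were not measured alone on the adult arrays.

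The chromosomal neighbours of the class II genes changed in both directions in the adults. Neighbours were the protein-coding genes between the outermost of these members and the 50 on either side, with the members left out. Of 92 such genes measured, 7 were higher and 6 lower in adult mutant ovaries than in wild-type ovaries, or 14.1%, against 16.2% of all genes. At P3 1 of 91 was called, H2-K1, where 0.324% of all genes were called.

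Over the 8 adult arrays, the genes closest to the mean centred profile of the 5 class II members (Cd74, H2-Aa, H2-Ab1, H2-Eb1 and H2-DMa) were Thoc2, Tmsb4x, Sft2d2, Prelp and Dusp6, with root mean square differences of 0.16 to 0.21 log2 units. For Csf1r, Cd68 and Ctss they were Fundc1, Slc16a9, Laptm5, C1qb and Trim30a, with 0.11 to 0.14. Laptm5 and C1qb are in the macrophage list.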
